A study of Homo sapiens with 2 samples.

Results

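APLNR, APLN, CXCR4, CXCL12, ACKR3, S1PR1, S1PR2 and S1PR3 are 8 genes of the apelin, CXCL12 and sphingosine 1-phosphate (S1P) systems, which guide migrating cells through G protein-coupled receptors. They were taken by gene number from RNA sequencing tables that listed 18518 genes in all, and each of the 8 was listed in both tables. The study sequenced 2 libraries of H1 cells, a standard line of human embryonic stem cells. The first came from wild-type H1 and the second from H1 cells labelled MEIS1-/-, that is, deleted for MEIS1, a homeodomain transcription factor that binds DNA together with HOX and PBX factors. For both genotypes the medium held activin A at 40 ng/ml with BMP4 at 50 ng/ml during the first 2 days. For the next 2 days it held VEGF at 40 ng/ml with bFGF at 50 ng/ml, and cells were taken at day 3, so during this second step of blood differentiation. The labels named no clone, no number of cultures and no deleted part of MEIS1.

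Apelin (APLN) and the related peptide ELABELA (APELA) are secreted ligands of the receptor APLNR, which is known in the embryo for the migration of mesoderm and in vessels for the growth of new branches. The chemokine CXCL12 attracts cells that carry CXCR4, and ACKR3 binds the same chemokine and clears it from around the cells. S1P is a lipid made inside cells and exported. Its receptors differ in the G proteins they use: S1PR1 acts through Gi and favours migration, whereas S1PR2 can act through G12 and G13 and restrain it.

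With 1 library per genotype no test between genotypes was possible, and every difference compares these 2 libraries. Estimated counts, rounded, summed to 5202877 in wild type and 5296431 in the MEIS1-/- labelled library. Folds are ratios of counts scaled by library size, with 1 added to each count. Each is followed by an exact Clopper-Pearson 95% interval, computed without the added 1, that covers counting error only. A gene is called higher or lower here when that interval excluded a ratio of 1. MEIS1 itself had 89 and 68 counts, a ratio of 0.759 (0.543 to 1.05), so its level did not check the genotype label, and directions are given for the library as labelled.

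Of the 8 genes, 4 were lower in the MEIS1-/- labelled library (APLN, S1PR3, APLNR and CXCR4), 1 was higher (CXCL12) and 3 had an interval that included 1 (ACKR3, S1PR1 and S1PR2). APLN was the 1 gene that passed a 2-fold difference. Of 14381 genes that reached 10 counts in either library, 14.7% had an interval below 1, 15.4% an interval above it, 2.95% were at least 2-fold lower and 2.90% at least 2-fold higher. Intervals narrow as counts rise, so these shares mix genes of unlike depth. By ratio from the lowest among these genes, S1PR3 ranked 538, APLNR 1547 and CXCR4 1734, and CXCL12 ranked 536 from the highest. The median log2 ratio was -0.26 over the 8 genes and 0.00 over all genes compared.

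**Figure D1:**
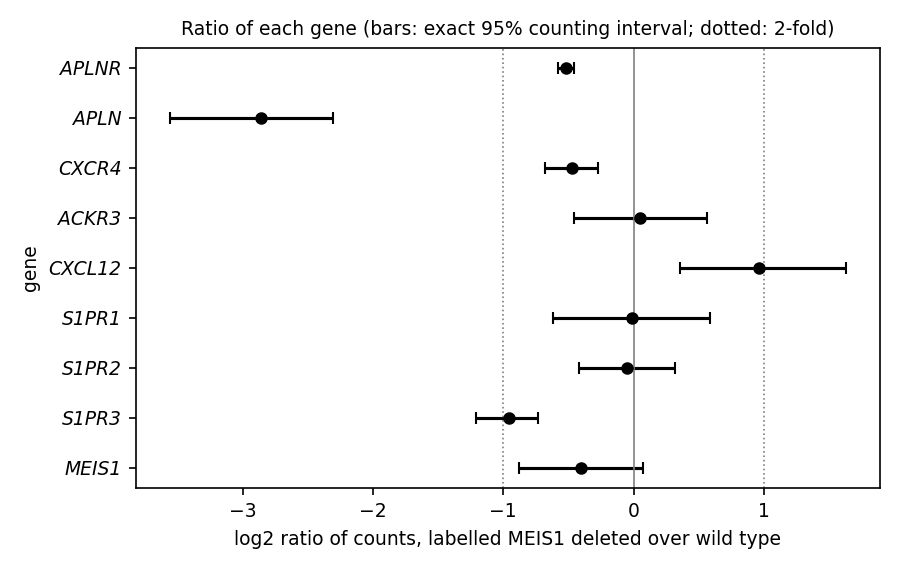
Log2 ratio of scaled counts (x axis, MEIS1-/- labelled library over wild type) for the 8 genes and MEIS1 (y axis), with exact 95% counting intervals as bars and 2-fold as dotted lines. APLN lies farthest from 0, at -2.86, and CXCL12 is the only gene whose bar lies wholly above 0.

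The apelin system held both the most abundant of the 8 genes and the one with the largest difference. APLN (gene 8862 in the files, on chromosome X) gave 193 wild-type counts and 26 counts in the MEIS1-/- labelled library. Its log2 ratio was -2.86 (-3.56 to -2.31), or 7.26-fold lower (4.96 to 11.8). Counted from the lowest ratio, it ranked 29 among the 14381 genes compared. Per length, in FPKM (a level scaled for gene length and library depth), its level was 11.4 in wild type (95% counting interval 9.87 to 13.2) and 1.51 in the MEIS1-/- labelled library (0.986 to 2.21). These intervals did not overlap. RNA was measured in bulk, so fewer APLN-expressing cells and less APLN RNA per cell cannot be told apart.

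APLNR (gene 187, chromosome 11), the receptor, differed far less than its ligand. It gave 5460 and 3859 counts, 1.43-fold lower (1.37 to 1.49) in the MEIS1-/- labelled library. At 268 FPKM in wild type (261 to 275) and 186 in the MEIS1-/- labelled library (181 to 192), it had rank 169 of 17562 listed genes and rank 267 of 17696. APLNR therefore stayed the most abundant of the 8 genes in both libraries. APELA (gene 100506013, chromosome 4), the other ligand of the receptor, had 195 and 185 counts, a ratio of 0.939 (0.764 to 1.15), and its interval included 1. Its expected counts were not whole, so some of its reads were shared with other genes.

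Because APLN differed more than APLNR, the level of the receptor relative to its ligand differed between libraries. APLNR stood at 23.4 times the FPKM of APLN in wild type (20.3 to 27.2) and at 123 times in the MEIS1-/- labelled library (84.1 to 189). The count odds ratio of this pair between libraries, which needs no scaling, was 5.25 (exact 95% interval 3.46 to 8.25). The 2 ligands were close in wild type, where APELA stood at 1.26 times the FPKM of APLN (1.03 to 1.55), and far apart in the MEIS1-/- labelled library, at 8.87 times (5.88 to 14.0). By FPKM, APELA was the more abundant ligand RNA of the receptor in both libraries. In wild type this rested on gene length (2603 bases for APELA, 3238 for APLN), since the counts were 195 and 193.

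**Figure D2:**
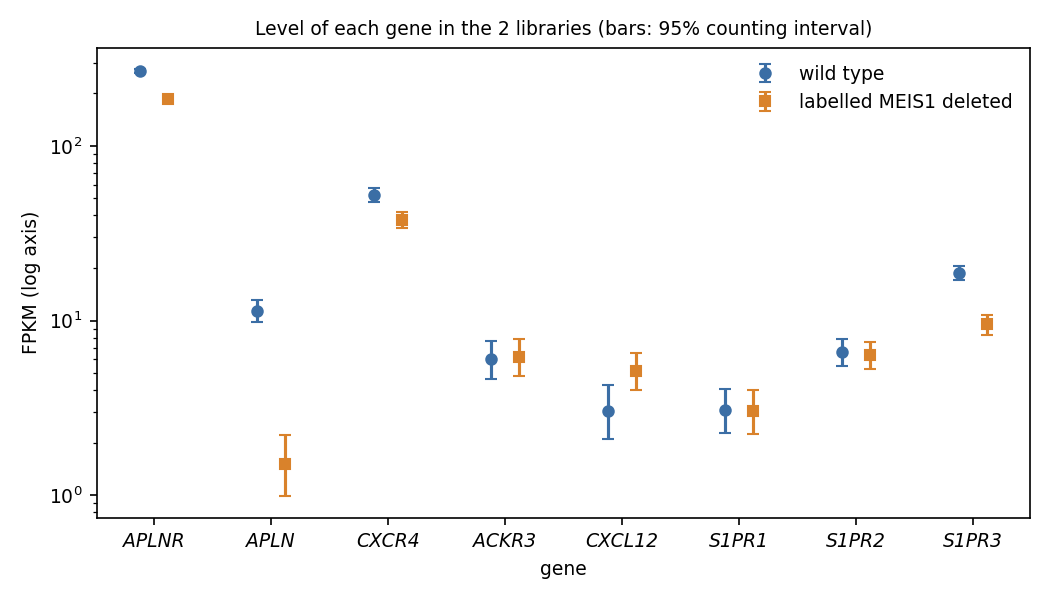
Level of the 8 genes (x axis) in FPKM on a log axis (y axis) in the wild-type library (circles) and the MEIS1-/- labelled library (squares), with 95% counting intervals as bars. APLN is the fourth highest in wild type and the lowest in the MEIS1-/- labelled library, while CXCL12, ACKR3, S1PR1 and S1PR2 have bars that overlap between libraries.

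In the chemokine system the receptor and the ligand differed in opposite directions. CXCR4 (gene 7852, chromosome 2) gave 462 wild-type counts against 336, a level 1.39-fold lower (1.20 to 1.60), or 52.5 FPKM (47.8 to 57.5) and 37.6 FPKM (33.7 to 41.9). CXCL12 (gene 6387, chromosome 10) gave 33 and 66 counts, 1.95-fold higher (1.28 to 3.10). Its FPKM was 3.03 (2.09 to 4.26) and 5.16 (3.99 to 6.56), a ratio of 1.70. These intervals overlapped, while the interval of the ratio of counts, which uses both counts at once, excluded 1.

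CXCL12 has 4 transcripts in the tables, and its listed length, which differed between the tables only for genes with several transcripts among the 8, was 2099 bases in wild type and 2421 in the MEIS1-/- labelled library. FPKM divides by this length, so the ratio was smaller in FPKM than in counts. The corresponding lengths were 3902 and 3892 bases for APLNR and 1707 and 1699 for CXCR4, each with 2 transcripts, and equal between libraries for the other 5 genes.

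ACKR3 (gene 57007, chromosome 2), the scavenging receptor, had 66 and 69 counts, a ratio of 1.03 (0.728 to 1.47), and 6.02 and 6.19 FPKM. An interval of this width does not show that its level was equal. CXCR4 stood at 17.3 times the FPKM of CXCL12 in wild type (12.2 to 25.5) and at 7.29 times in the MEIS1-/- labelled library (5.59 to 9.65), with a count odds ratio of 0.364 (0.227 to 0.576). For CXCR4 against ACKR3 the count odds ratio was 0.696 (0.474 to 1.02), an interval that included 1.

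Of the 3 S1P receptor genes, only S1PR3 had an interval that excluded 1. S1PR3 (gene 1903, chromosome 9), which couples to several G protein classes, gave 431 and 223 counts, 1.95-fold lower (1.66 to 2.31) in the MEIS1-/- labelled library, with 18.7 FPKM (17.0 to 20.6) and 9.51 FPKM (8.31 to 10.8). S1PR1 (gene 1901, chromosome 1) had 49 counts in each library, a log2 ratio of -0.01 (-0.62 to 0.59), with 3.08 and 3.03 FPKM. S1PR2 (gene 9294, chromosome 19) had 124 and 121 counts, a ratio of 0.966 (0.746 to 1.25), with 6.62 and 6.35 FPKM. Intervals of this width do not show that the levels of S1PR1 and S1PR2 were equal. S1PR3 was the most abundant of the 3 in both libraries, but its lead was smaller in the MEIS1-/- labelled library.

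S1PR3 stood at 2.83 times the FPKM of S1PR2 in wild type (2.31 to 3.48) and at 1.498 times in the MEIS1-/- labelled library (1.20 to 1.89). The count odds ratio was 0.531 (0.389 to 0.723) for this pair and 0.518 (0.330 to 0.813) for S1PR3 against S1PR1. S1PR2 against S1PR1 gave 0.976 (0.594 to 1.60), which included 1. In all, 9 gene pairs were compared in this way. The other pairs gave 0.745 (0.603 to 0.920) for APLNR against APELA, 7.02 (4.40 to 11.6) for APELA against APLN and 0.524 (0.294 to 0.924) for ACKR3 against CXCL12. The counts of S1PR3 and S1PR2 were not whole, so part of their reads was shared with other genes. C9orf47, which the tables list apart and RefSeq now gives as a synonym of S1PR3, had 18.5 and 7.26 counts. Summed with it, S1PR3 gave 450 and 230 counts, 1.97-fold lower (1.68 to 2.33).

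**Figure D3:**
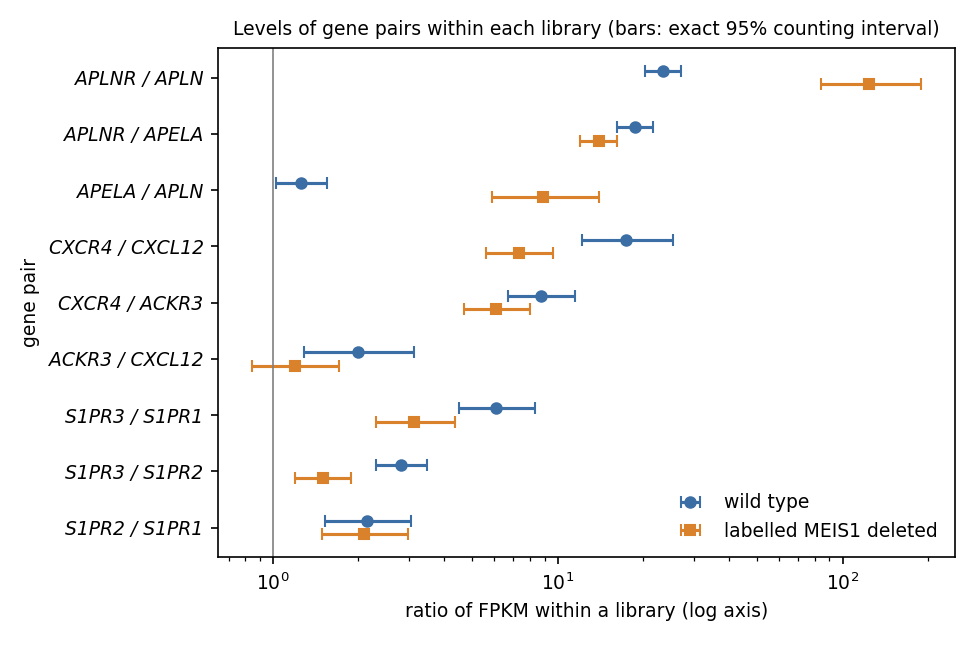
Ratio of the FPKM values of 9 gene pairs (y axis, first gene over second) within each library on a log axis (x axis), with exact 95% counting intervals as bars, for the wild-type library (circles) and the MEIS1-/- labelled library (squares). The pair APLNR over APLN moves from 23.4 to 123, and S1PR2 over S1PR1 stays near 2.15 and 2.10.

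By FPKM, the order in wild type was APLNR, CXCR4, S1PR3, APLN, S1PR2, ACKR3, S1PR1 and CXCL12. The neighbours S1PR2 and ACKR3, and S1PR1 and CXCL12, had counting intervals that overlapped. In the MEIS1-/- labelled library the order was APLNR, CXCR4, S1PR3, S1PR2, ACKR3, CXCL12, S1PR1 and APLN, and the intervals of neighbours overlapped from S1PR2 through to S1PR1. The ranks of the first 3 genes were the same in both libraries.

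**Figure D4:**
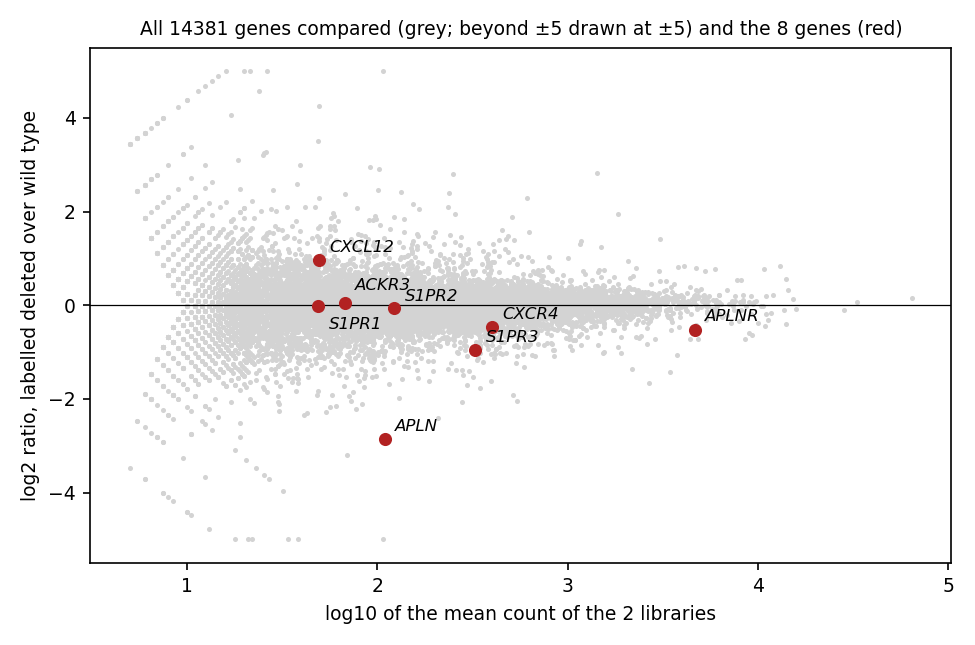
Log2 ratio (y axis, MEIS1-/- labelled library over wild type) against the log10 of the mean count (x axis) for the 14381 genes compared (grey) and the 8 genes (red). APLN, at -2.86, lies below the bulk of genes of like count, and ACKR3, S1PR1 and S1PR2 lie near 0.

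Sequences upstream of the start site were read from RefSeq (build GRCh38.p14) for the gene with the largest difference (APLN), the gene that was higher (CXCL12) and the only one of the genes matched whose window held a MEIS motif (S1PR1). Each is the 250 bases before the annotated start, written 5′ to 3′ on the strand of the gene, and capitals mark that motif. The files used hg19, and no value was read by these coordinates.
APLN (chrX:129654957-129655206, minus strand): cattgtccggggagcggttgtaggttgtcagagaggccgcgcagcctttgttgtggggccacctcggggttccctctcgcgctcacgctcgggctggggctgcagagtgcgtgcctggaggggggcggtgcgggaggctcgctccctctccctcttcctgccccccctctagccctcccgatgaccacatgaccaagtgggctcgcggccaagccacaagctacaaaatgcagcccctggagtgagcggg
CXCL12 (chr10:44385098-44385347, minus strand): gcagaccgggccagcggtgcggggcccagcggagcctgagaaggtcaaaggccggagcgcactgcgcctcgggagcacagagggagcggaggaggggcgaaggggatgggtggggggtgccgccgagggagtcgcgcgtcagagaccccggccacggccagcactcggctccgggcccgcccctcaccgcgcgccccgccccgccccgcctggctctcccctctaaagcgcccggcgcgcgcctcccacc
S1PR1 (chr1:101236769-101237018, plus strand): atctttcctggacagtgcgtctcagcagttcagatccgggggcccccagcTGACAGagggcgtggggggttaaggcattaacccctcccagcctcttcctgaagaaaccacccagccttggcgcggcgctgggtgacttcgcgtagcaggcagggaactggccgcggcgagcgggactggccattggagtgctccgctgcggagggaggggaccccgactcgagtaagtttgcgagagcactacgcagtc

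The table of promoters held 6 of the 8 genes, with 9 windows, since CXCR4 and S1PR3 have several starts. APLNR and ACKR3 had no entry. TGACAG, the core motif of MEIS proteins, was searched on both strands and was found in 1 of the 9 windows, that of S1PR1, 200 bases before the start, where it does not overlap another motif searched. It is present in 13.0% of 35116 such windows. AGATAA, searched in the same way for GATA factors, was in 0 of the 9 and in 9.17% of all windows, and ACGTG, the core of the hypoxia response element, was in 0 of the 9 and in 18.5% of all windows. S1PR1 had 49 counts in each library and an interval that included 1. A link between these letters and the level of any gene was not tested. A match is a description of letters, and the windows without one are short.

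Other genes of the same systems were described by lists. Each list is to be read beside the shares over all genes compared. Of these, 15.4% had an interval above 1 and 14.7% below it, and 2.90% and 2.95% passed 2-fold. In the list of 3 genes for the second apelin receptor ligand and for peptidases, all 3 intervals included 1, and the median log2 ratio was -0.02. FURIN, a protease that cuts many precursor proteins, had 1106 and 1104 counts. MME (neprilysin), a membrane peptidase, had 735 and 798 counts, a ratio of 1.07 (0.971 to 1.19).

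Most other chemokine genes were scarce. Of 47 genes in that list, 21 were listed in neither library, 14 were below the minimum, and of the 12 compared 2 were higher and 2 lower, while 8 intervals included 1 (median -0.10). These numbers are near the shares over all genes compared. DPP4, a membrane protease that cleaves and inactivates CXCL12, gave 93 and 213 counts, 2.25-fold higher (1.77 to 2.92). The monocyte attractant CCL2 gave 115 and 41 counts, 2.79-fold lower (1.97 to 4.15), and the neutrophil attractant CXCL5 gave 90 and 35 counts, 2.55-fold lower (1.74 to 3.96). CCL5, the other higher gene, had 79 and 130 counts, and MIF, another ligand of CXCR4, had 691 and 661, a ratio of 0.947 with an interval that included 1. Both were named after their values were seen. CXCL12 and DPP4 were both higher, and a link between them was not tested. Among the other chemokines compared, the largest differences were in the lower direction.

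Among enzymes and carriers of S1P, 9 of 11 genes were compared, with 2 higher, 4 lower and 3 whose interval included 1 (median -0.14). The 4 lower genes all encode phosphatases that act on S1P or related lipids, a grouping made after their values were seen and not tested. SGPP2, a further phosphatase gene of the list, had 1 and 0 counts and was not compared. PLPP1 gave 464 and 230 counts, 2.03-fold lower (1.74 to 2.40), and PLPP2 gave 67 and 37 counts, 1.81-fold lower (1.21 to 2.81). PLPP3 (1.27-fold, 1.05 to 1.54) and SGPP1 (1.26-fold, 1.01 to 1.58) differed less and were named after their values were seen. SPNS2, the exporter of S1P, gave 110 and 163 counts, 1.46-fold higher (1.14 to 1.89). APOM, which carries S1P in plasma, had 3 and 13 counts, a ratio of 3.46 (1.18 to 23.5). The S1P kinase genes SPHK1, with 22 and 33 counts, and SPHK2, with 108 and 102, had intervals that included 1 and were likewise named outside the rule.

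The remaining lysophospholipid receptors showed both directions. Of 7 compared among 9, 2 were higher, 1 was lower and 4 had an interval that included 1 (median -0.06). LPAR1, a receptor for lysophosphatidic acid, gave 77 and 43 counts, 1.79-fold lower (1.23 to 2.69). LPAR5 gave 10 and 33 counts, 3.06-fold higher (1.57 to 7.43), and LPAR6 gave 66 and 95 counts, 1.42-fold higher (1.03 to 1.98). LPAR2 had 159 and 128 counts, with an interval that included 1. Of the other S1P receptors, named regardless of the rule, S1PR5 had 13 and 11 counts and S1PR4 was listed in neither library.

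Of 31 genes compared for G protein subunits, arrestins, receptor kinases and RGS proteins, 10 were higher and 4 lower, while 17 intervals included 1 (median 0.05). RGS proteins switch off G protein signals. RGS1, a brake on chemokine receptors in blood cells, gave 57 and 138 counts, 2.37-fold higher (1.75 to 3.32), and RGS4 gave 90 and 188 counts, 2.06-fold higher (1.60 to 2.69). GNG2, a G protein gamma subunit, gave 303 and 673 counts, 2.19-fold higher (1.92 to 2.53). ARRB1 (beta-arrestin 1), which binds activated receptors and takes them off the surface, gave 880 and 427 counts, 2.08-fold lower (1.85 to 2.34). Expected counts of CXCL5, CCL5, LPAR6 and ARRB1 were not whole, so part of their reads was shared. ARRB1 was the only gene of this list that was at least 2-fold lower, against 3 that were at least 2-fold higher.

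**Figure D5:**
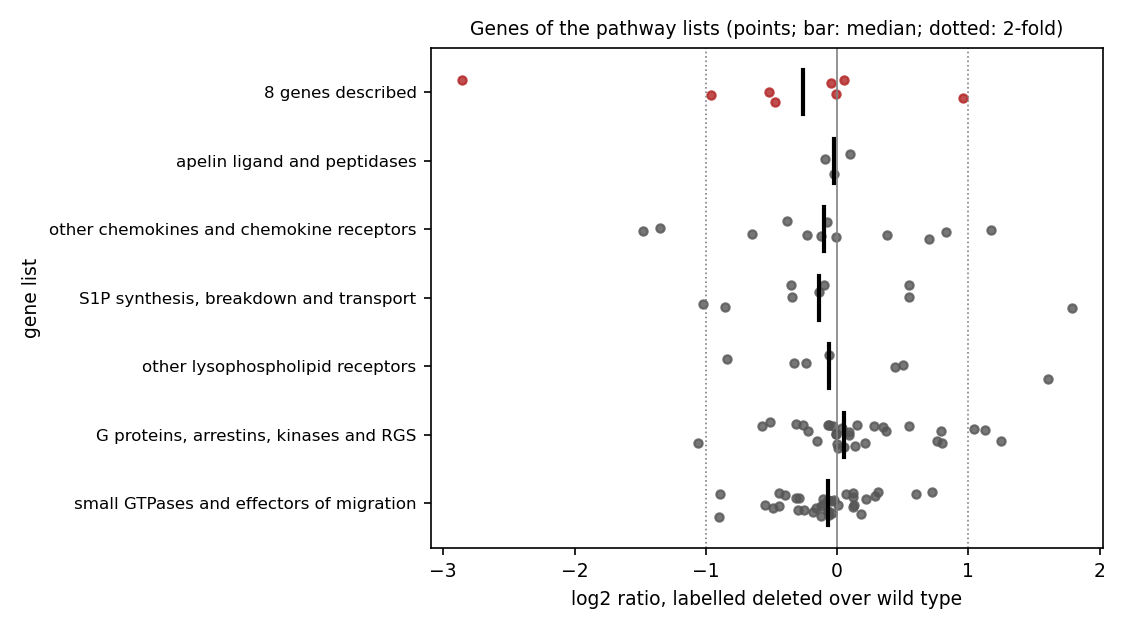
Log2 ratio (x axis, MEIS1-/- labelled library over wild type) of each gene compared, as points, in the 8 genes described and in 6 lists of related genes (y axis), with the list median as a bar and 2-fold as dotted lines. List medians lie between -0.14 and 0.05, and that of the 8 genes at -0.26.

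Marker lists for the cell types possible in these cultures are given beside these differences. Over all genes compared, 15.4% were higher and 14.7% lower. Summed levels are in CPM, counts scaled to library size. Endothelial markers, a cell type that can express APLN, APLNR, CXCR4 and S1PR1, were higher in 8 of 9 compared, lower in 1, and their sum was 1066 in wild type and 1451 in the MEIS1-/- labelled library (median log2 ratio 1.05). KDR held most of the summed counts, with 4489 of 5567 in wild type and 5184 of 7655 in the MEIS1-/- labelled library. The higher genes ranged from 1.14-fold (KDR) to 6.99-fold (PLVAP), and VWF was 1.65-fold lower. CLDN5 was listed in neither library, and EMCN and ROBO4 were below the minimum.

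Definitive endoderm, for which CXCR4 is a common surface marker, had 3 of 7 markers lower and 1 higher, with sums of 258 and 172 (median -0.48). The lower genes were PRDM1 (563 and 331 counts), SOX17 (461 and 285) and CER1 (136 and 31). HHEX was higher (40 and 105), and the intervals of FOXA1, FOXA2 and AFP included 1. The endoderm median was -0.10 with a minimum of 1 count and -0.71 with a minimum of 50. Primitive streak and mesoderm markers, the cells in which APLNR is best known at this stage, had 4 of 7 lower and 3 higher, with sums of 739 and 723 and a median of -1.41, which was 0.26 over the 5 with at least 50 counts. The lower genes were EOMES (867 and 211 counts, 4.14-fold), TBXT (125 and 47, 2.65-fold), MIXL1 and TBX6. PDGFRA, HAND1 and FOXF1 were the higher ones. HAND1 held most of the summed counts, with 2291 of 3858 in wild type and 2767 of 3813 in the MEIS1-/- labelled library. Pluripotency markers had 4 of 6 lower and 0 higher, with sums of 2102 and 1827 (median -0.39). Fibroblast and smooth muscle markers, cells that commonly secrete CXCL12, had 4 of 6 higher and 1 lower, with sums of 1166 and 2054 (median 0.78). COL1A1 (3440 and 5998 counts) and COL3A1 (346 and 2498) made most of the difference in these sums. ACTA2 and LUM were also higher, TAGLN was 1.15-fold lower, and the interval of PDGFRB included 1. TTR, MESP1 and SOX2 were below the minimum and DCN was listed in neither library.

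Blood cell markers were sparse, with sums of 28.7 and 32.4. Of 11 genes, HBZ, HBG2 and MPO were listed in neither library, and PTPRC, SPI1, CD53 and HBE1 were below the minimum. Of the 4 compared, 1 was higher, 1 was lower and 2 had an interval that included 1 (median 0.55). The part of these cell types in the differences of the 8 genes was not tested.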

How the data were processed

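RNA was sequenced in 2 libraries, 1 per genotype, made by the TruSeq RNA kit from a 2 µg input, per the labels' protocols. The authors deposited, per the file headers, an expected count (an estimated count, since reads that match several genes are divided) and an FPKM value per gene. BWA, Bowtie, RSEM and hg19 are named, without versions, per the submitters' processing notes. Genes absent from 1 table were taken as 0. Gene numbers were given symbols through RefSeq (GRCh38.p14), with 18413 of 18518 matched. Expected counts were rounded and scaled by TMM effective library sizes (edgeR 4.0.16, R 4.3.3); their ratio was 1.01. No model was fitted. Intervals came from SciPy 1.17.1, and the computation was tested on simulated data. PCR copies are not independent molecules, so intervals and a floor of 3 counts for a gene at 0 cover counting error only. Counts of whole value were those within 0.005.

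The genes and the 12 lists (6 of pathways, 6 of cell type markers) were chosen with earlier results of these data known. Of the genes first listed, 2 are not reported here and were left out of the lists. Named genes were the 8 genes, MEIS1, and, from each list, genes at least 2-fold different plus up to 3 with the largest ratios where a library reached 50 counts; not all are printed. For APLNR and CXCR4 the 3 genes nearest in log2(FPKM + 1) over the 2 libraries were also named. Alternatives covered scaling by total count or by DESeq2 1.42.0 size factors, pseudocounts, rounding, FPKM in place of counts, and the minimum count.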

Additional observations from a re-analysis of the deposited data

How the results depend on the processing

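Of 48 values of the 8 genes under other scaling, pseudocounts, rounding and FPKM, 47 stayed within the counting interval, and no gene whose interval excluded 1 changed direction. The exception was APLN from FPKM with a pseudocount of 1, at -2.31, where the added 1 weighs on a low level. Of 264 values of other named genes, 261 stayed within it; TIAM2, PECAM1 and TIE1 moved to -0.51, 1.76 and 1.68 from FPKM with that pseudocount, with their direction kept. Of 96 values for list medians, 95 moved by less than the usual half-width of a member's counting interval. The exception was the median of primitive streak and mesoderm markers, at 0.26 with a minimum of 50 counts. That minimum left out MIXL1 and TBX6, which were both lower. The numbers of genes past 2-fold (higher, then lower) were 161 and 171 with a minimum of 50 counts, 827 and 893 at 1.5-fold, and 111 and 81 at 4-fold, against 417 and 424. Rescaled to TPM, a change of unit that keeps the order within a library, levels in wild type and the MEIS1-/- labelled library were 729 and 502 for APLNR, 31.1 and 4.06 for APLN, 143 and 101 for CXCR4, 8.24 and 13.9 for CXCL12, 16.4 and 16.7 for ACKR3, 8.38 and 8.16 for S1PR1, 18.0 and 17.1 for S1PR2, and 51.0 and 25.6 for S1PR3. No paired analysis was possible because each genotype had 1 library, and for the same reason no replicate could be left out. Depth limits CXCL12, S1PR1 and ACKR3 most, with 33 to 69 counts per library, and APLN in the MEIS1-/- labelled library, with 26.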

Other observations

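Genes that carry receptor signals to the cytoskeleton differed in both directions. Of 38 genes for small GTPases such as RAC1 and CDC42 and for their activators and effectors, 36 were compared, with 5 higher, 9 lower, 22 whose interval included 1 and 0 that passed 2-fold in either direction (median log2 ratio -0.07). Over all genes compared, 15.4% had an interval above 1 and 14.7% below it, and 2.90% and 2.95% passed 2-fold. PREX1, a RAC activator that responds to G protein beta-gamma subunits, gave 766 and 414 counts, 1.87-fold lower (1.66 to 2.11) in the MEIS1-/- labelled library. TIAM2, another RAC activator, gave 171 and 93 counts, 1.85-fold lower (1.43 to 2.42), and from FPKM with a pseudocount of 1 its log2 ratio was -0.51, against -0.89 from counts. RHOJ, a small GTPase of endothelial cells, gave 47 and 79 counts, 1.65-fold higher (1.15 to 2.44), on expected counts that were not whole.

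By distance in log2(FPKM + 1) over the 2 libraries, the genes nearest to APLNR were TUBB2B (280 and 172 FPKM, distance 0.128), APOE (240 and 189 FPKM, 0.158) and PMP22 (234 and 179 FPKM, 0.201). Those nearest to CXCR4 were CEP55 (52.0 and 38.3 FPKM, 0.028), TAF10 (53.0 and 36.4 FPKM, 0.049) and GET3 (50.3 and 37.6 FPKM, 0.058). With 2 libraries, many genes lie close by level alone.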
